A study of Homo sapiens with 9 samples.

Results

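The genes described here are 10 genes of the TGF-beta and activin system, chosen by symbol: the ligand genes Tgfb1, Tgfb2, Tgfb3 and Inhba, the receptor genes Tgfbr1 and Tgfbr2, the extracellular carrier Ltbp1, the activin inhibitor Fst, the intracellular inhibitor Smad7 and the matrix gene Tgfbi. All 10 had a row among the 17369 genes of the expression table, and all 10 were among the 10263 genes expressed highly enough to be tested. They were measured in 9 whole tumors grown in the thyroid, in 3 groups of 3 tumors. Groups are named by cells and host: the original/B6129SF1 group came from original TBP3743 cells in B6129SF1 mice, the adapted/B6129SF1 group from adapted TBP3743 cells in B6129SF1 mice, and the adapted/B6 group from adapted TBP3743 cells in C57BL/6 mice. TBP3743 is a murine anaplastic thyroid cancer line from B6129SF1 mice with a thyroid-specific activating Braf mutation and Trp53 deletion, which the cells of all 3 groups carry. The adapted cells are a single derived population, taken from tumors of the passage round numbered 3 through C57BL/6 mice. Every host was a female mouse, 6 weeks old at injection, that received 100000 cells in the left thyroid gland, and tumors were taken 14 days later. Adapted/B6129SF1 and original/B6129SF1 differ in the cells, adapted/B6 and adapted/B6129SF1 differ in the host, and adapted/B6 and original/B6129SF1 differ in both, which cannot be told apart in that pair. The labels call the tumors biological replicates without naming the animal of each, so p-values measure the spread between these tumors. The labels give the organism as Homo sapiens, whereas the cell line, the hosts, the gene symbols and the mm10 genome build are those of the mouse.

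TGF-beta is secreted in a latent form, bound to its own propeptide and tethered to the matrix by latent TGF-beta binding proteins, and becomes active when integrins, proteases or thrombospondin release it. Active TGF-beta binds the type II receptor TGFBR2, which recruits and phosphorylates the type I receptor TGFBR1, which in turn phosphorylates SMAD2 and SMAD3. Activins, dimers of inhibin beta subunits such as the product of Inhba, signal to the same SMADs through their own receptors and are neutralized by follistatin, the product of Fst. In the thyroid both TGF-beta and activin are known as inhibitors of follicular cell growth, and TGF-beta is known in carcinomas as an inducer of mesenchymal genes.

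Values were FPKM, fragments scaled by transcript length and by library, which allows levels of different genes to be compared within a tumor. Differences between groups are log2 fold changes of FPKM + 1 from limma, with their standard error (SE). A gene was called where its Benjamini-Hochberg adjusted p over all genes tested was under 0.05. Read counts were not used, so the depth is unknown. Steps between low values put the depth of the other tumors at 0.966 to 1.35 times that of original/B6129SF1 replicate 1. Skeletal muscle transcripts stood apart: the 12 muscle markers took 6.89% of summed FPKM in adapted/B6129SF1 replicate 3, 1.18% in adapted/B6 replicate 1, and at most 0.138% in the other tumors. The summed level of 6 T cell markers was 2.93 to 4.68 FPKM in original/B6129SF1, 5.01 to 27.3 FPKM in adapted/B6129SF1 and 17.2 to 26.4 FPKM in adapted/B6. The 7 fibroblast markers summed to 649.9 to 882 FPKM, 675 to 1317 FPKM and 963 to 1046 FPKM in the same order, the 7 macrophage markers to 378 to 593 FPKM, 403 to 594 FPKM and 312 to 581 FPKM, and the 6 endothelial markers to 56.0 to 72.0 FPKM, 56.4 to 90.2 FPKM and 67.8 to 82.0 FPKM. The 4 leukocyte markers summed to 151 to 184 FPKM, 207 to 279 FPKM and 159 to 278 FPKM, and the 4 platelet markers to 331 to 556 FPKM, 72.0 to 285 FPKM and 236 to 331 FPKM. Most of the platelet sum was Pf4, at 307 to 527 FPKM, 69.5 to 276 FPKM and 229 to 320 FPKM, which was not called. Ppbp was called lower in adapted/B6129SF1 against original/B6129SF1 (log2 fold change -2.43, limma adjusted p = 0.0259), where 3.92% of all genes tested were. Itga2b and Gp9, at most 1.12 and 0.146 FPKM in any tumor, were too low to be tested. Against the labelled cell type, a cancer epithelial cell, Epcam was at most 2.49 FPKM in any tumor, Tshr was listed at 0 in at least 1 tumor, and the thyroid factor Nkx2-1 was present in all 9, at 23.5 to 44.5 FPKM. The 7 thyroid and epithelial markers that were tested summed to 647 to 1010.2 FPKM in original/B6129SF1, 289.8 to 581 FPKM in adapted/B6129SF1 and 428 to 476 FPKM in adapted/B6. Most of this sum was the keratins Krt8 and Krt18. Krt8, at 363 to 615 FPKM, 153 to 283 FPKM and 221 to 241 FPKM, was the 1 of these 7 called lower in each comparison with original/B6129SF1 (log2 fold changes of -1.32 and -1.12, limma adjusted p = 0.0189 and 0.0346). Of all genes tested, 3.92% and 2.77% were called lower in these comparisons. Krt18 was not called (-0.94 and -0.93, limma adjusted p = 0.116 and 0.131). Of the 7, 6 were lower and 1 higher in adapted/B6129SF1, called or not, and 2 lower and 5 higher in adapted/B6. The log2 fold changes of Nkx2-1 were 0.044 and 0.092. The part of these shifts in the differences between groups described below was not tested. Because whole tumors were lysed, fewer cells of a type and less RNA per cell cannot be told apart.

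None of the 10 genes was called in any of the 3 comparisons. Between adapted/B6129SF1 and original/B6129SF1, limma called 0 of the 10 genes where it called 8.28% of all genes tested, and 2 of the 10 (Tgfb1 and Tgfbr2) had an unadjusted p under 0.05, against 26.5% of all genes. Between adapted/B6 and original/B6129SF1 it called 0 of the 10 genes and 6.75% of all genes, with 2 of the 10 (Smad7 and Tgfbr2) at an unadjusted p under 0.05, against 24.4% of all genes. Between adapted/B6 and adapted/B6129SF1 it called 0 of the 10 genes and 0.0292% of all genes, with 1 of the 10 (Ltbp1) at an unadjusted p under 0.05, against 6.27% of all genes. The median log2 fold change of the 10 genes was 0.24, 0.29 and 0.060 in these comparisons, beside -0.029, -0.025 and 0.0063 over all genes tested.

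Groups that did not overlap at all were seen for a few of the 10 genes. In adapted/B6129SF1 against original/B6129SF1, Tgfb1 and Smad7 were higher in every adapted tumor, a pattern shown upward by 13.6% of all genes, and Tgfbr2 was lower in every adapted tumor, a pattern shown downward by 15.9%. In adapted/B6 against original/B6129SF1, Smad7 stood wholly above, as did 14.9% of all genes, and Tgfbr2 wholly below, as did 17.9%. In adapted/B6 against adapted/B6129SF1, Ltbp1 and Fst stood wholly above, as did 6.32% of all genes, and none of the 10 stood wholly below, against 5.42%. An exact two-sided permutation test of 3 tumors against 3 cannot give a p below 0.1.

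**Figure D1:**
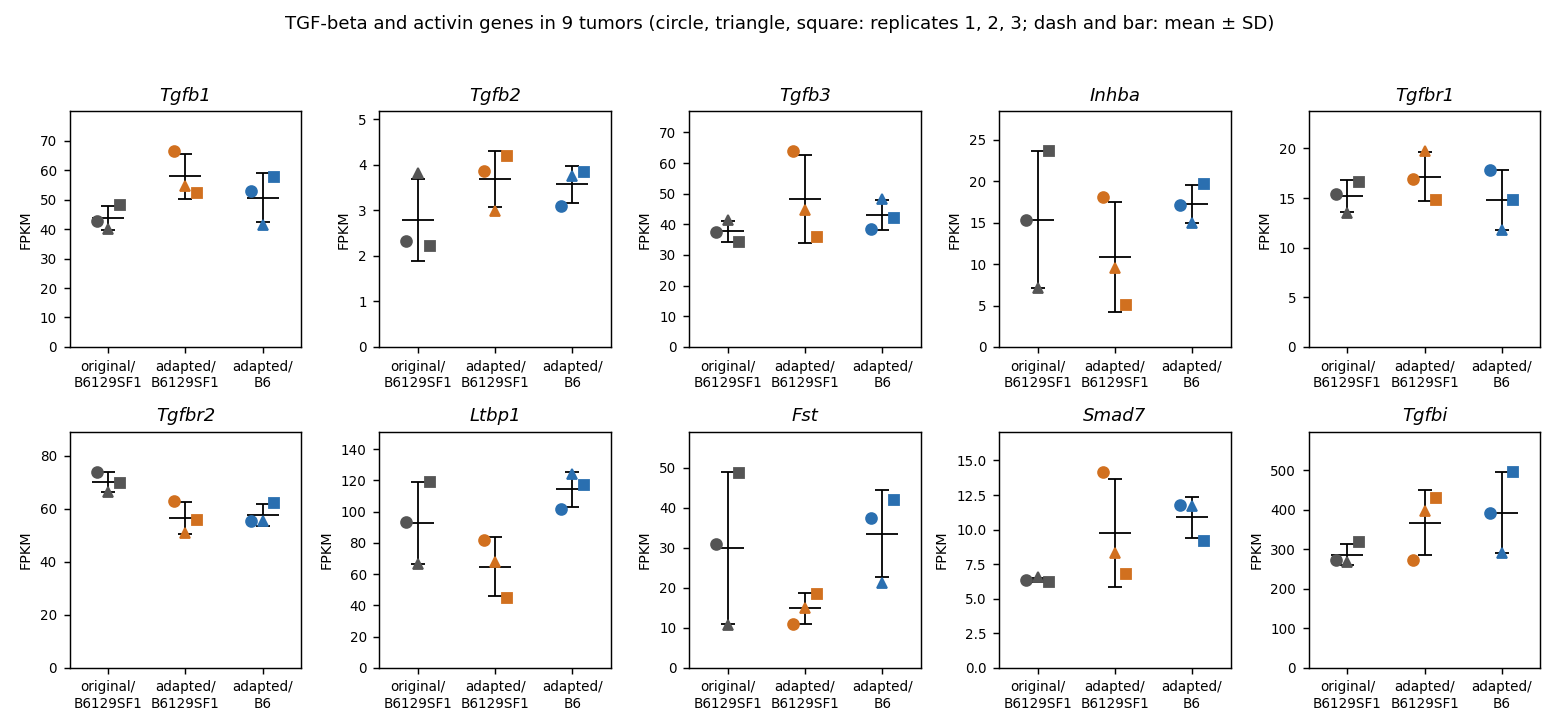
FPKM (vertical axis, from 0) of each of the 10 genes in the 9 tumors, by group; circles, triangles and squares are replicates 1, 2 and 3, and the dash and bar give the mean and SD of 3 tumors. Smad7 lies between 6.20 and 6.54 FPKM in original/B6129SF1 and above that in every adapted tumor, while Tgfbr2 lies lower in every adapted tumor than in any original/B6129SF1 tumor.

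Among the TGF-beta ligand genes, Tgfb1 and Tgfb3 were abundant and Tgfb2 was scarce in every tumor. Tgfb1, the most widely expressed isoform, was at 42.7, 40.2 and 48.1 FPKM in original/B6129SF1 replicates 1 to 3, at 66.6, 54.7 and 52.4 FPKM in adapted/B6129SF1, and at 52.9, 41.5 and 57.7 FPKM in adapted/B6. All 3 adapted/B6129SF1 tumors exceeded all original/B6129SF1 tumors, and adapted/B6 overlapped both groups. The log2 fold change of Tgfb1 was 0.39 (SE 0.15) in adapted/B6129SF1 against original/B6129SF1, with a limma adjusted p of 0.128, and 0.20 (SE 0.15, adjusted p = 0.441) in adapted/B6 against original/B6129SF1. The 95% confidence interval of the first ran from 0.064 to 0.73 before any adjustment for multiple testing. Tgfb1 between adapted/B6 and adapted/B6129SF1 differed by -0.19 on the log2 scale (95% confidence interval -0.52 to 0.14).

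Tgfb3, an isoform prominent in mesenchymal tissues, was nearly as abundant as Tgfb1. Its level was 37.4, 41.4 and 34.3 FPKM in original/B6129SF1, 64.0, 44.6 and 36.0 FPKM in adapted/B6129SF1, and 38.6, 48.4 and 42.1 FPKM in adapted/B6. Adapted/B6129SF1 replicate 1 was the highest of the 9 tumors for Tgfb3, as it was for Tgfb1, and the groups overlapped in every pair. The log2 fold change of Tgfb3 was 0.31 (SE 0.19, limma adjusted p = 0.338) in adapted/B6129SF1 and 0.18 (SE 0.19, adjusted p = 0.612) in adapted/B6 against original/B6129SF1. Tgfb2 was at 2.31, 3.81 and 2.21 FPKM in original/B6129SF1, at 3.86, 2.99 and 4.20 FPKM in adapted/B6129SF1, and at 3.10, 3.75 and 3.85 FPKM in adapted/B6. Its groups overlapped, with log2 fold changes of 0.33 (SE 0.19, adjusted p = 0.296) and 0.29 (SE 0.19, adjusted p = 0.372) against original/B6129SF1.

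The mix of the isoforms differed between groups by less than it did between tumors of a group. Tgfb1 made up 51.9% ± 4.89, 53.2% ± 3.53 and 52.0% ± 6.62 (SD, n = 3) of the summed isoform FPKM in original/B6129SF1, adapted/B6129SF1 and adapted/B6, and Tgfb2 3.29% ± 1.02, 3.44% ± 0.946 and 3.67% ± 0.366. The summed level was 84.1 ± 1.55, 109.8 ± 22.0 and 97.3 ± 5.52 FPKM (SD, n = 3), with the adapted/B6129SF1 value reaching from 92.5 to 135 FPKM. Every adapted tumor, at 92.5 FPKM or more, was above every original/B6129SF1 tumor, at 85.4 FPKM or less. The sum was chosen after its values were seen and has no test. Of all genes tested, 13.6% and 14.9% stood wholly higher in adapted/B6129SF1 and in adapted/B6 than in original/B6129SF1.

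Inhba, which encodes the beta A subunit of activin A, varied more between tumors of a group than between groups. It was at 15.4, 7.08 and 23.7 FPKM in original/B6129SF1, at 18.1, 9.49 and 5.09 FPKM in adapted/B6129SF1, and at 17.2, 15.0 and 19.7 FPKM in adapted/B6, a 4.66-fold range over the 9 tumors. The adapted/B6 tumors lay close together inside the range of original/B6129SF1, with replicate 3 above every adapted/B6129SF1 tumor. Its log2 fold change was -0.47 (SE 0.46, 95% confidence interval -1.53 to 0.58, limma adjusted p = 0.544) in adapted/B6129SF1 and 0.29 (SE 0.46, 95% confidence interval -0.76 to 1.35, adjusted p = 0.744) in adapted/B6 against original/B6129SF1. The other ligand genes, from a list of 8 with 8 in the table and 4 tested, gave 0 limma calls in any comparison, with 1, 2 and 0 of the 4 at an unadjusted p under 0.05. Of all genes tested, 26.5%, 24.4% and 6.27% reached that level in these comparisons.

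Inhbb, which encodes the beta B subunit of activin B, was at 7.04, 5.42 and 10.2 FPKM in original/B6129SF1, 24.6, 7.10 and 7.18 FPKM in adapted/B6129SF1, and 13.1, 20.2 and 18.9 FPKM in adapted/B6. All 3 adapted/B6 tumors stood above the original/B6129SF1 tumors, a pattern shown upward by 14.9% of all genes tested. The log2 fold change of Inhbb was 1.12 (SE 0.43), with a limma adjusted p of 0.156. The ratio of Inhba to Inhbb was 1.94 ± 0.550 in original/B6129SF1, 0.927 ± 0.355 in adapted/B6129SF1 and 1.03 ± 0.283 in adapted/B6 (SD, n = 3), a description chosen after the values were seen. Inha, the inhibin alpha subunit whose pairing with a beta subunit gives the activin antagonist inhibin, was named after its values were seen: it was scarce, at 0.512 to 0.565 FPKM in original/B6129SF1, 0.874 to 1.95 FPKM in adapted/B6129SF1 and 1.31 to 2.62 FPKM in adapted/B6, with limma adjusted p of 0.0967 and 0.0569 against original/B6129SF1. Gdf11, a ligand of the activin receptors, was at 1.25 to 3.42 FPKM, 1.67 to 2.29 FPKM and 1.29 to 1.72 FPKM in the same groups, with log2 fold changes of -0.27 (SE 0.25, adjusted p = 0.515) and -0.48 (SE 0.25, adjusted p = 0.279).

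The receptor genes differed from each other: Tgfbr2 stood lower in every adapted tumor than in any original/B6129SF1 tumor, and Tgfbr1 overlapped between all groups. Tgfbr2 was at 74.1, 66.4 and 69.8 FPKM in original/B6129SF1, at 63.2, 51.1 and 55.8 FPKM in adapted/B6129SF1, and at 55.5, 55.3 and 62.4 FPKM in adapted/B6. No adapted tumor reached the lowest original/B6129SF1 tumor. Its log2 fold change was -0.31 (SE 0.10, 95% confidence interval -0.54 to -0.072, limma adjusted p = 0.103) in adapted/B6129SF1 and -0.28 (SE 0.10, 95% confidence interval -0.51 to -0.043, adjusted p = 0.143) in adapted/B6 against original/B6129SF1. Between the adapted groups the log2 difference was 0.029, with an interval from -0.20 to 0.26. Tgfbr2 had the smallest spread of the 10 genes within groups, an SD of 0.11 on the log2 scale.

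Tgfbr1 was at 15.5, 13.5 and 16.7 FPKM in original/B6129SF1, at 16.9, 19.8 and 14.8 FPKM in adapted/B6129SF1, and at 17.9, 11.8 and 14.8 FPKM in adapted/B6. Its log2 fold changes were 0.16 (SE 0.16, limma adjusted p = 0.556) and -0.047 (SE 0.16, adjusted p = 0.892) against original/B6129SF1, with intervals from -0.21 to 0.53 and from -0.42 to 0.32. The ratio of Tgfbr2 to Tgfbr1 within a tumor was 4.64 ± 0.392 in original/B6129SF1, 3.36 ± 0.674 in adapted/B6129SF1 and 4.01 ± 0.814 in adapted/B6 (SD, n = 3). Each adapted/B6129SF1 tumor, at 2.58 to 3.77, had a lower ratio than each original/B6129SF1 tumor, at 4.19 to 4.92, whereas the adapted/B6 tumors spanned 3.10 to 4.69. The ratio has no test, and 15.9% of all genes tested stood wholly lower in adapted/B6129SF1 than in original/B6129SF1.

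**Figure D2:**
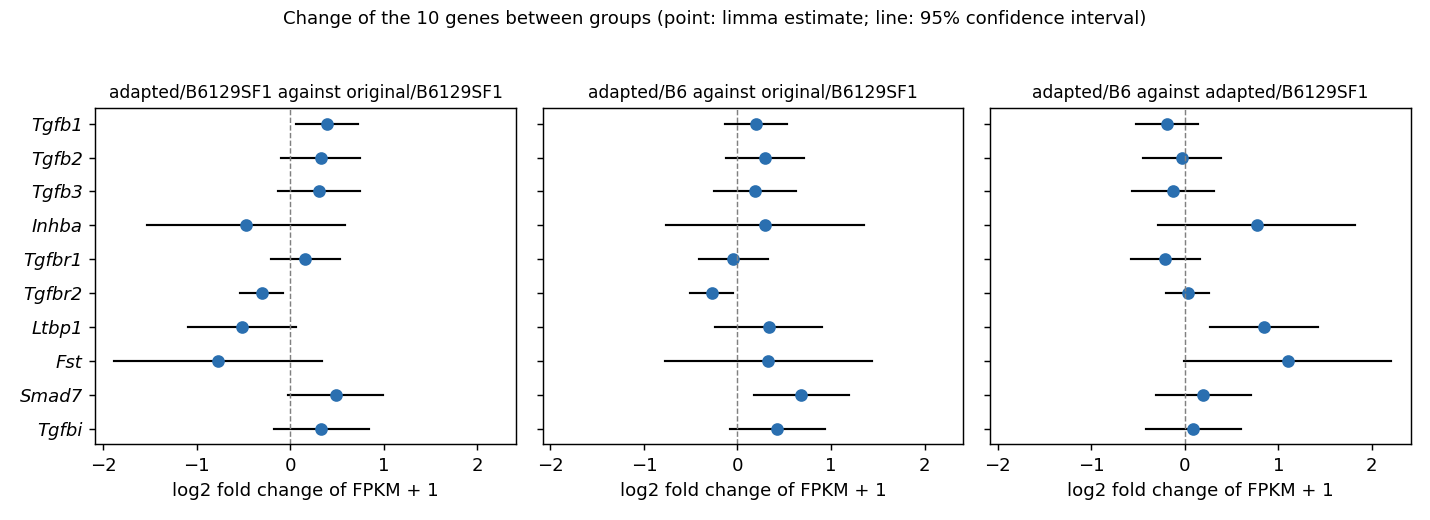
Log2 fold change of FPKM + 1 (horizontal axis) of the 10 genes in each of the 3 comparisons; points are limma estimates and lines their 95% confidence intervals, not adjusted for multiple testing. Tgfbr2 has short intervals below 0 in both comparisons with original/B6129SF1, and Inhba and Fst have the longest intervals.

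Of the other receptor and coreceptor genes, 10 listed and 8 tested, 1 was called higher in adapted/B6129SF1 against original/B6129SF1, where 4.37% of all genes tested were, and 0 in adapted/B6 against original/B6129SF1, with 1 at an unadjusted p under 0.05, against 24.4% of all genes. The called gene was Acvrl1, a type I receptor that, with endoglin, passes on TGF-beta and BMP signals in endothelial cells. It was at 3.95, 3.35 and 4.14 FPKM in original/B6129SF1, 5.33, 5.80 and 8.26 FPKM in adapted/B6129SF1, and 6.23, 5.28 and 5.84 FPKM in adapted/B6, with no overlap of either adapted group with original/B6129SF1. It differed by a log2 fold change of 0.62 (SE 0.16, limma adjusted p = 0.0467) in adapted/B6129SF1 and 0.50 (SE 0.16, adjusted p = 0.0957) in adapted/B6, and the first call was kept in 1 of 9 fits that left out a tumor, the fit without adapted/B6129SF1 replicate 1, and in 3 of 10 other alternatives. Its highest value was in adapted/B6129SF1 replicate 3, rich in muscle transcripts, and the call was lost without both muscle-rich tumors (0.45, limma adjusted p = 0.113) and with a skeletal muscle covariate (0.50, adjusted p = 0.0777). The summed endothelial markers, above, overlapped between groups, and their part in the Acvrl1 level was not tested. Acvr1, a type I receptor of BMPs and activins, was at 20.5 to 22.7 FPKM, 19.3 to 35.1 FPKM and 27.4 to 31.0 FPKM in the 3 groups, with adjusted p of 0.521 and 0.249 against original/B6129SF1.

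Ltbp1, which encodes the carrier that binds latent TGF-beta and fixes it to the matrix, was higher in every adapted/B6 tumor than in any adapted/B6129SF1 tumor. It was at 93.3, 66.4 and 119 FPKM in original/B6129SF1, at 82.1, 67.7 and 44.7 FPKM in adapted/B6129SF1, and at 102, 124 and 117 FPKM in adapted/B6. The original/B6129SF1 tumors overlapped with both adapted groups. The log2 fold change of Ltbp1 was 0.85 (SE 0.25, 95% confidence interval 0.27 to 1.42) in adapted/B6 against adapted/B6129SF1, with an unadjusted p of 0.00897 and a limma adjusted p of 0.602. Against original/B6129SF1 it was -0.52 (SE 0.25, adjusted p = 0.235) in adapted/B6129SF1 and 0.33 (SE 0.25, adjusted p = 0.470) in adapted/B6. The lowest value, in adapted/B6129SF1 replicate 3, was in the tumor richest in muscle transcripts. With both muscle-rich tumors left out, the log2 fold change of Ltbp1 between the adapted groups was 0.68 (limma adjusted p = 0.670).

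Ltbp2, the family member that binds microfibrils but not latent TGF-beta, rose in both adapted groups, with the smallest adjusted p among the other pathway genes. The tumors of original/B6129SF1 were at 10.5, 6.70 and 13.7 FPKM, those of adapted/B6129SF1 at 55.5, 30.4 and 38.7 FPKM, and those of adapted/B6 at 43.9, 66.5 and 53.6 FPKM. The lowest adapted tumor was above the highest original/B6129SF1 tumor by more than the whole range of original/B6129SF1. The log2 fold change was 1.92 (SE 0.28, limma adjusted p = 0.00798) in adapted/B6129SF1 and 2.33 (SE 0.28, adjusted p = 0.00334) in adapted/B6, and both calls were kept in all 9 fits without 1 tumor and all 10 other alternatives. Between the adapted groups it differed by 0.41 (SE 0.28, 95% confidence interval -0.23 to 1.05, adjusted p = 0.867).

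Ltbp2 made up 4.81% ± 1.02 of the summed FPKM of Ltbp1 to Ltbp4 in original/B6129SF1, 18.3% ± 3.85 in adapted/B6129SF1 and 17.5% ± 2.35 in adapted/B6 (SD, n = 3). Ltbp3 and Ltbp4, named here to complete the family after the values were seen, bind latent TGF-beta strongly and weakly, respectively. Ltbp3 was at 37.6 to 56.7 FPKM, 38.4 to 86.6 FPKM and 68.2 to 69.3 FPKM in the 3 groups, and Ltbp4 at 46.5 to 77.6 FPKM, 49.0 to 102 FPKM and 67.7 to 74.9 FPKM. Neither was called, with limma adjusted p between 0.323 and 0.798 against original/B6129SF1. Adapted/B6129SF1 replicate 1 held the highest Ltbp3 and Ltbp4 of the 9 tumors, as it did for Tgfb1, Tgfb3 and Smad7.

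**Figure D3:**
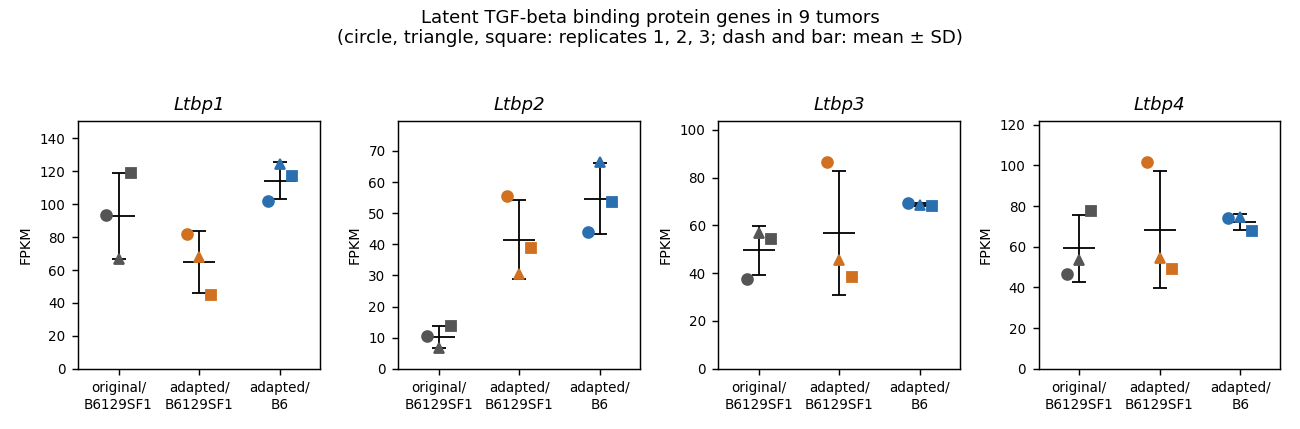
FPKM (vertical axis, from 0) of Ltbp1, Ltbp2, Ltbp3 and Ltbp4 in the 9 tumors by group; symbols are replicates 1 to 3, and the dash and bar give the mean and SD. Ltbp2 lies between 6.70 and 13.7 FPKM in original/B6129SF1 and between 30.4 and 66.5 FPKM in the adapted tumors, and the other 3 genes overlap between original/B6129SF1 and adapted/B6129SF1.

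The list of genes for the latent complex and its activation held 14 genes, 13 in the table and 11 tested. Ltbp2 was its 1 call in each comparison with original/B6129SF1, or 9.09% of the 11, near the 8.28% and 6.75% of all genes called in either direction, and 0 were called between the adapted groups, with 0 at an unadjusted p under 0.05, against 6.27% of all genes. Its most abundant gene, the integrin subunit Itgb1, was at 260 to 292 FPKM in original/B6129SF1, 201 to 253 FPKM in adapted/B6129SF1 and 241 to 263 FPKM in adapted/B6, with log2 fold changes of -0.29 (SE 0.11, limma adjusted p = 0.131) and -0.16 (SE 0.11, adjusted p = 0.419) against original/B6129SF1.

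Fst, which encodes the activin-binding protein follistatin, was higher in every adapted/B6 tumor than in any adapted/B6129SF1 tumor and, like Inhba, spread widely in original/B6129SF1. It was at 30.9, 10.6 and 48.5 FPKM in original/B6129SF1, at 10.9, 15.0 and 18.5 FPKM in adapted/B6129SF1, and at 37.4, 21.2 and 41.8 FPKM in adapted/B6. The fitted log2 fold change was 1.10 (SE 0.49, 95% confidence interval -0.012 to 2.21, limma adjusted p = 0.804) in adapted/B6 against adapted/B6129SF1. Against original/B6129SF1 it was -0.77 (SE 0.49, adjusted p = 0.347) in adapted/B6129SF1 and 0.33 (SE 0.49, adjusted p = 0.726) in adapted/B6. The ratio of Fst to Inhba within a tumor was 1.85 ± 0.304, 1.94 ± 1.55 and 1.90 ± 0.427 (SD, n = 3) in original/B6129SF1, adapted/B6129SF1 and adapted/B6, with the extremes of 0.601 and 3.64 both in adapted/B6129SF1.

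Inhba, Ltbp1 and Fst ranked the original/B6129SF1 tumors in the same order, lowest in replicate 2 and highest in replicate 3. Over the 9 tumors, which share their groups, the log2 levels of Inhba and Ltbp1 had a Pearson r of 0.90 and a Spearman rho of 0.70, given as a description. In adapted/B6129SF1 Inhba and Ltbp1 were both highest in replicate 1 and lowest in replicate 3, and Fst was lowest in replicate 1 and highest in replicate 3.

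Of the other extracellular inhibitors, 9 listed, 8 in the table and 7 tested, limma called 0 in any comparison. In the 3 comparisons 2, 0 and 1 had an unadjusted p under 0.05, against 26.5%, 24.4% and 6.27% of all genes tested. The most abundant was Htra1, a secreted protease known to inhibit signaling by TGF-beta family ligands. It was at 335 to 337 FPKM in original/B6129SF1, 177 to 283 FPKM in adapted/B6129SF1 and 239.9 to 321 FPKM in adapted/B6, below original/B6129SF1 in each adapted tumor, with log2 fold changes of -0.58 (SE 0.18, limma adjusted p = 0.0815) and -0.22 (SE 0.18, adjusted p = 0.506). Of all genes tested, 15.9% and 17.9% stood wholly lower in adapted/B6129SF1 and in adapted/B6 than in original/B6129SF1. Dcn, the proteoglycan decorin that binds TGF-beta, was at 65.3 to 105 FPKM, 41.4 to 142 FPKM and 47.2 to 70.3 FPKM in the 3 groups. The highest Dcn value was in adapted/B6129SF1 replicate 3, rich in muscle transcripts. With both muscle-rich tumors left out, its log2 fold change in adapted/B6129SF1 against original/B6129SF1 was -0.95 and it was called (adjusted p = 0.0386), against -0.39 (adjusted p = 0.590) with all tumors.

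Smad7, the inhibitory SMAD that TGF-beta signaling induces and that brings ubiquitin ligases to the activated receptor, was tightly grouped in original/B6129SF1 and higher in each adapted tumor. It was at 6.32, 6.54 and 6.20 FPKM in original/B6129SF1, at 14.2, 8.30 and 6.76 FPKM in adapted/B6129SF1, and at 11.8, 11.7 and 9.16 FPKM in adapted/B6. Adapted/B6129SF1 spread from just above original/B6129SF1 to the highest of the 9 tumors. The log2 fold change of Smad7 was 0.68 (SE 0.22, 95% confidence interval 0.17 to 1.19, limma adjusted p = 0.104) in adapted/B6 and 0.49 (SE 0.22, 95% confidence interval -0.021 to 1.00, adjusted p = 0.205) in adapted/B6129SF1 against original/B6129SF1. The adapted/B6 difference, of the same size, was called when the spread was estimated without adapted/B6129SF1 replicate 1 (adjusted p = 0.0189) or from the 6 tumors compared alone (adjusted p = 0.0188). Smad7 between the adapted groups differed by 0.20 (95% confidence interval -0.31 to 0.70).

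Of the 15 other SMADs and SMAD regulators, all 15 tested, 2 were called higher in adapted/B6 against original/B6129SF1, where 3.99% of all genes tested were. In adapted/B6129SF1 against original/B6129SF1, 0 were called, with 4 at an unadjusted p under 0.05, against 26.5% of all genes. Between the adapted groups 0 were called, with 1 at that level, against 6.27% of all genes. The called genes were Smad6, the inhibitory SMAD of the BMP branch, and Nedd4l, a ubiquitin ligase that marks activated SMAD2 and SMAD3 for destruction. Smad6 was at 0.931, 1.67 and 1.04 FPKM in original/B6129SF1, 4.35, 2.52 and 2.35 FPKM in adapted/B6129SF1, and 2.91, 4.64 and 3.15 FPKM in adapted/B6, above original/B6129SF1 in all 6 adapted tumors. By limma the log2 fold change was 1.04 (SE 0.23, limma adjusted p = 0.0341) in adapted/B6 and 0.86 (SE 0.23, adjusted p = 0.0572) in adapted/B6129SF1.

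Nedd4l was at 6.24, 4.26 and 4.44 FPKM in original/B6129SF1, 7.69, 7.79 and 6.79 FPKM in adapted/B6129SF1, and 7.62, 12.1 and 9.60 FPKM in adapted/B6. Every adapted tumor was above every original/B6129SF1 tumor, with log2 fold changes of 0.84 (SE 0.18, limma adjusted p = 0.0286) in adapted/B6 and 0.51 (SE 0.18, adjusted p = 0.113) in adapted/B6129SF1. The signal-transducing Smad2 and Smad3, named after their values were seen, were at 7.32 to 10.9 FPKM and 16.7 to 32.7 FPKM over the 9 tumors, and neither was called. Skil, which encodes the SMAD corepressor SnoN and was also named after its values were seen, was at 17.6 to 23.0 FPKM in original/B6129SF1, 23.3 to 40.7 FPKM in adapted/B6129SF1 and 30.9 to 31.7 FPKM in adapted/B6, with limma adjusted p of 0.132 and 0.0903 against original/B6129SF1.

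The Smad6 call was kept in 6 of the 9 other alternatives in which the gene was tested and lost, among others, under quantile normalization (limma adjusted p = 0.101) and with no filter on low values (adjusted p = 0.0550), and the Nedd4l call was kept in 8 of 10 and lost, among others, with no filter (adjusted p = 0.0511). The Smad6 call was kept in 4 of 9 fits without 1 tumor and lost without original/B6129SF1 replicate 1 or 3 or any adapted/B6 tumor, and the Nedd4l call was kept in 5 of 9 and lost without original/B6129SF1 replicate 2 or 3 or adapted/B6 replicate 2 or 3.

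Tgfbi, a secreted matrix protein named for its induction by TGF-beta, was the most abundant of the 10 genes and did not separate the groups. It was at 273, 268 and 317 FPKM in original/B6129SF1, at 273, 397 and 429.8 FPKM in adapted/B6129SF1, and at 391.5, 289.9 and 496 FPKM in adapted/B6. The original/B6129SF1 tumors lay at the low end, and 1 tumor of each adapted group lay among them. The log2 fold changes were 0.33 (SE 0.22, 95% confidence interval -0.17 to 0.84, limma adjusted p = 0.372) and 0.43 (SE 0.22, 95% confidence interval -0.084 to 0.93, adjusted p = 0.285) against original/B6129SF1. The genes whose log2 levels followed Tgfbi most closely over the 9 tumors were B3gnt8 (Pearson r 0.94, Spearman rho 0.87), Sirpb1b (r 0.94, rho 0.92) and Ino80e (r 0.94, rho 0.83). Those 3 were picked as the highest of all genes tested, and the values are descriptions.

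Ordered by mean FPKM over the 9 tumors, Tgfbi (348 FPKM) was followed by Ltbp1 (90.7), Tgfbr2 (61.5), Tgfb1 (50.8), Tgfb3 (43.0), Fst (26.1), Tgfbr1 (15.7), Inhba (14.5), Smad7 (8.99) and Tgfb2 (3.34 FPKM). Tgfbi, Ltbp1 and Tgfbr2 exceeded 98.3%, 92.3% and 87.8% of the genes tested, and Tgfb2 exceeded 13.7%. The ranges over tumors of neighbours in this order overlapped, except between Tgfbi and Ltbp1, whose lowest and highest values were 268 and 124 FPKM, and between Smad7 and Tgfb2, at 6.20 and 4.20 FPKM.

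Of 25 listed transcriptional targets, 22 in the table and 21 tested, 1 was called higher in each comparison with original/B6129SF1, or 4.76% of the 21, near the 4.37% and 3.99% of all genes called higher, and 0 between the adapted groups, with 1 at an unadjusted p under 0.05, against 6.27% of all genes. The median log2 fold change of the 21 was 0.13, 0.032 and -0.21 in adapted/B6129SF1 against original/B6129SF1, adapted/B6 against original/B6129SF1 and adapted/B6 against adapted/B6129SF1. The called gene was Acta2, smooth muscle actin, which TGF-beta induces in fibroblasts. It was at 15.8, 8.33 and 8.99 FPKM in original/B6129SF1, 27.9, 30.9 and 76.5 FPKM in adapted/B6129SF1, and 34.2, 41.7 and 47.4 FPKM in adapted/B6, with every adapted tumor above every original/B6129SF1 tumor. Its log2 fold change was 1.84 (SE 0.37, limma adjusted p = 0.0229) in adapted/B6129SF1 and 1.85 (SE 0.37, adjusted p = 0.0242) in adapted/B6.

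The highest Acta2 value was in adapted/B6129SF1 replicate 3, the tumor richest in skeletal muscle transcripts. Without both muscle-rich tumors the log2 fold changes of Acta2 were 1.39 (limma adjusted p = 0.0261) and 1.97 (adjusted p = 0.00738). The adapted/B6129SF1 call was lost without original/B6129SF1 replicate 2 or 3, and the adapted/B6 call without original/B6129SF1 replicate 2 or 3 or adapted/B6 replicate 2 or 3, with limma adjusted p up to 0.0826 and 0.101. With only the 6 tumors compared the adapted/B6129SF1 call was also lost (adjusted p = 0.0552), and each Acta2 call was kept in 9 of the 10 other alternatives. Of the 7 genes listed as fibroblast markers, limma called 1 higher in adapted/B6129SF1 (Fap, log2 fold change 1.21, adjusted p = 0.0161), 2 higher in adapted/B6 (Fap, 0.89, adjusted p = 0.0479, and Thy1, 1.54, adjusted p = 0.00527) and 0 lower. Of all genes tested, 4.37% and 3.99% were called higher and 3.92% and 2.77% lower, in the same order. Among the markers not called, Lum had log2 fold changes of -0.71 and -1.29 and Pdpn of -0.81 and 0.92 in the same order, with adjusted p between 0.200 and 0.465. The part of the fibroblast markers in the Acta2 and Ltbp2 levels was not tested. Fn1, the matrix protein fibronectin and the target of highest mean level among those not called, was at 700.3 to 836 FPKM in original/B6129SF1, 460.4 to 1181 FPKM in adapted/B6129SF1 and 794 to 1109 FPKM in adapted/B6, with log2 fold changes of -0.22 (SE 0.31, adjusted p = 0.688) and 0.29 (SE 0.31, adjusted p = 0.616).

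Of the BMP branch, 17 genes were listed and 13 tested. In adapted/B6129SF1 against original/B6129SF1, 1 gene was called lower, where 3.92% of all genes tested were. In adapted/B6 against original/B6129SF1, 2 were called higher and 1 lower, or 23.1% of the 13. In that comparison 3.99% of all genes tested were called higher and 2.77% lower, and 6.75% in either direction. Limma called 0 between the adapted groups, with 1 at an unadjusted p under 0.05, against 6.27% of all genes. Grem1, the secreted BMP antagonist gremlin, fell in adapted/B6129SF1: it was at 102, 61.7 and 145 FPKM in original/B6129SF1, 35.5, 40.7 and 11.9 FPKM in adapted/B6129SF1, and 47.7, 56.2 and 55.4 FPKM in adapted/B6. All 6 adapted tumors were below all original/B6129SF1 tumors, and the log2 fold change was -1.86 (SE 0.44, limma adjusted p = 0.0376) in adapted/B6129SF1 and -0.86 (SE 0.44, adjusted p = 0.272) in adapted/B6. The lowest Grem1 value was in adapted/B6129SF1 replicate 3, rich in muscle transcripts, and the call was lost without both muscle-rich tumors (-1.33, limma adjusted p = 0.0584) and with a skeletal muscle covariate (-1.57, adjusted p = 0.0669). The difference between the adapted groups, 1.00 (SE 0.44, adjusted p = 0.804), was not called.

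Id1 and Id2, inhibitors of helix-loop-helix transcription factors and direct targets of BMP SMADs, rose in adapted/B6. Id1 was at 56.5, 76.7 and 66.3 FPKM in original/B6129SF1, 172, 89.9 and 89.5 FPKM in adapted/B6129SF1, and 144, 125 and 129.3 FPKM in adapted/B6. Its log2 fold change was 0.99 (SE 0.24, limma adjusted p = 0.0459) in adapted/B6 and 0.75 (SE 0.24, adjusted p = 0.0938) in adapted/B6129SF1, with no overlap of either group with original/B6129SF1. Id2 was at 35.9, 55.8 and 41.6 FPKM in original/B6129SF1, 65.4, 48.3 and 49.4 FPKM in adapted/B6129SF1, and 65.0, 72.1 and 83.2 FPKM in adapted/B6, with log2 fold changes of 0.73 (SE 0.18, adjusted p = 0.0499) in adapted/B6 and 0.30 (SE 0.18, adjusted p = 0.334) in adapted/B6129SF1. Only adapted/B6 was clear of original/B6129SF1 for Id2.

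Smad5, a signal-transducing SMAD of the BMP branch, fell by 0.35 on the log2 scale in adapted/B6 (SE 0.084, limma adjusted p = 0.0434). It was at 27.7, 29.6 and 27.8 FPKM in original/B6129SF1, 24.5, 22.3 and 22.2 FPKM in adapted/B6129SF1, and 21.5, 23.4 and 21.2 FPKM in adapted/B6, lower than original/B6129SF1 in all 6 adapted tumors. In adapted/B6129SF1 the log2 fold change was -0.29 (SE 0.084, adjusted p = 0.0668). In the 9 fits without 1 tumor the call of Grem1 was kept in 4, that of Smad5 in 2, that of Id1 in 3 and that of Id2 in 2, and in the 10 other alternatives they were kept in 5, 4, 4 and 3. Each of the Smad5 and Id1 calls was lost without any original/B6129SF1 or any adapted/B6 tumor, that of Smad5 also without adapted/B6129SF1 replicate 2, that of Id2 without original/B6129SF1 replicate 1 or 3, adapted/B6129SF1 replicate 2 or 3 or any adapted/B6 tumor, and that of Grem1 without original/B6129SF1 replicate 1 or 3 or any adapted/B6 tumor.

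**Figure D4:**
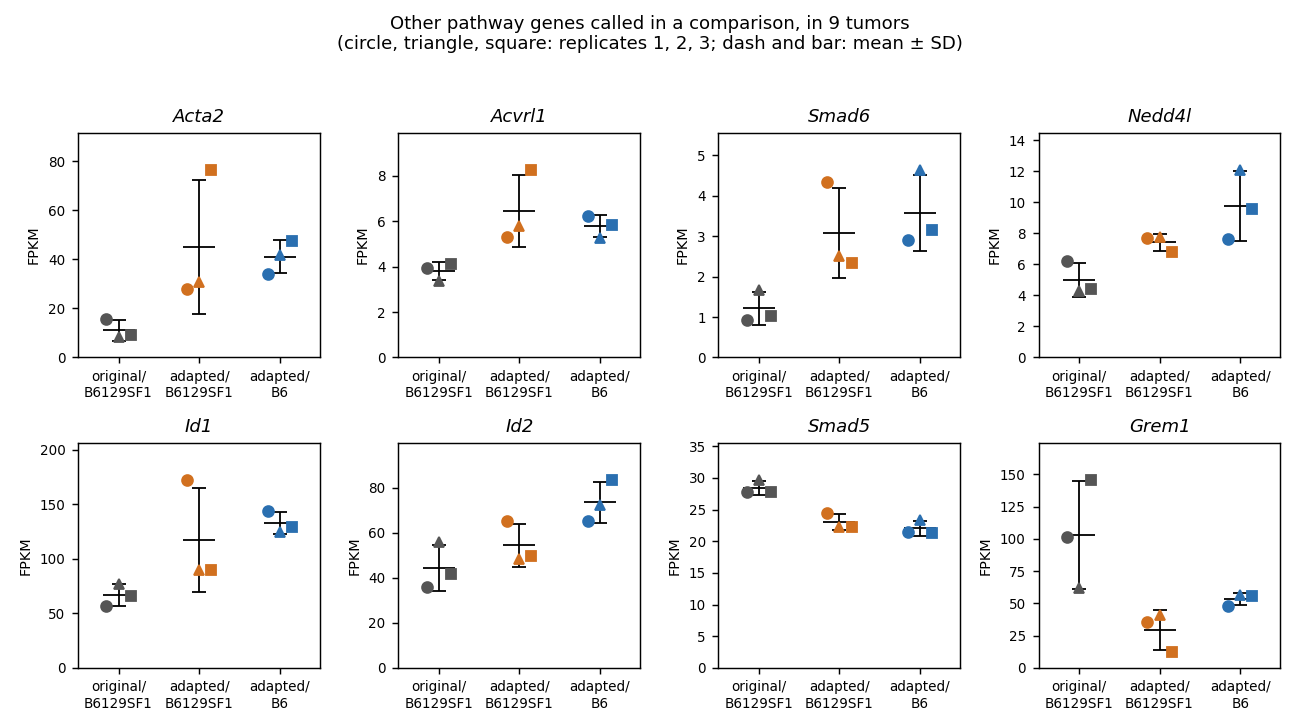
FPKM (vertical axis, from 0) of the pathway genes other than Ltbp2 that were called in a comparison, in the 9 tumors by group; symbols are replicates 1 to 3, and the dash and bar give the mean and SD. Acta2, Acvrl1, Smad6, Nedd4l and Id1 are higher, and Smad5 and Grem1 lower, in all 6 adapted tumors than in the 3 original/B6129SF1 tumors, whereas Id2 overlaps between adapted/B6129SF1 and original/B6129SF1. The genes were picked by calls against the same original/B6129SF1 tumors, so this separation is not a further result. Of all genes tested, 13.6% and 14.9% stood wholly higher and 15.9% and 17.9% wholly lower in adapted/B6129SF1 and in adapted/B6 against original/B6129SF1.

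Over all lists together, 94 pathway genes beside the 10 were listed, 89 had a row and 76 were tested. In adapted/B6129SF1 against original/B6129SF1, 3 were called higher and 1 lower, or 5.26% of the 76, and in adapted/B6 against original/B6129SF1, 6 higher and 1 lower, or 9.21%, beside the 8.28% and 6.75% of all genes tested given above. Limma called 0 of the 76 between adapted/B6 and adapted/B6129SF1, with 4 at an unadjusted p under 0.05, against 6.27% of all genes. The median log2 fold change of the 76 was 0.064, 0.035 and 0.074 in these comparisons. Ltbp2 and Acta2 were called in both comparisons with original/B6129SF1, which share the original/B6129SF1 tumors.

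**Figure D5:**
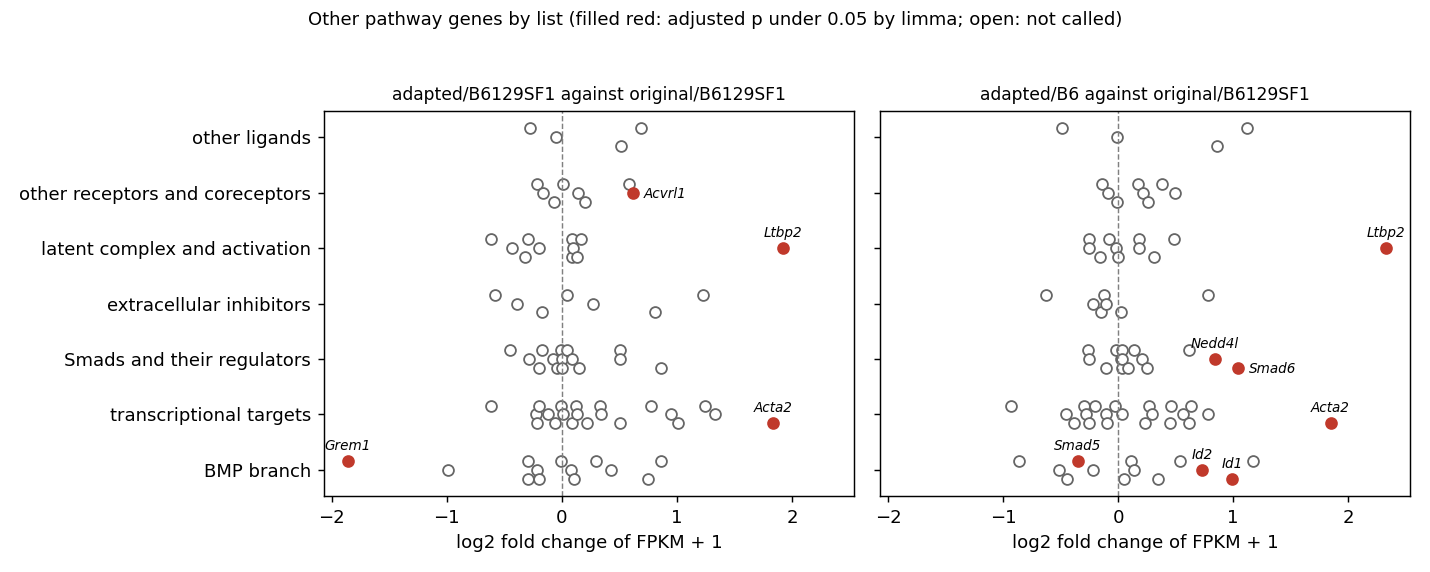
Log2 fold change of FPKM + 1 (horizontal axis) of the tested genes of each pathway list (rows) in adapted/B6129SF1 and adapted/B6 against original/B6129SF1; filled red points are genes called by limma at an adjusted p under 0.05 and open points genes not called. Ltbp2, at 1.92 and 2.33, lies farthest to the right in both panels, and most genes lie between -1 and 1.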

How the data were processed

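RNA of 9 tumors was sequenced by the authors as paired-end reads, checked with FastQC, aligned with HISAT2 to the mm10 build and tested with Cuffdiff. The deposited values are FPKM that the authors made with Cuffnorm; the gene annotation is not given in the sources used here. Groups came from the sample titles, and no sequencing batch or date is labelled. Values were taken as log2(FPKM + 1). A gene was kept when 3 or more tumors reached 1 FPKM, which left 10263 of 17369. These entered a single limma model (version 3.58.1, under R 4.3.3) of the 3 groups, with moderated variances that follow a mean-variance trend, with Benjamini-Hochberg adjustment over all genes tested and a threshold of 0.05. The procedure was tested on simulated data. The pseudocount makes fold changes of scarce genes too small. Depth is unknown, and how far depth or the number of tumors limits the precision was not tested. No 2 tumors shared identical values for more than 0.0487% of the genes.

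The members and gene lists were chosen with earlier results of these data known. Named genes are the 10 members, the called genes of each list (at most 4 per comparison), topped up to 2 per list by mean FPKM, and the 3 genes most like the most abundant member. The pathway lists, 7 in number, were written by hand, and some genes stand in more than one. Ccn1, Ccn2, Timp1, Bgn and Nrros of those lists were not analysed here. The alternatives were other scalings, another pseudocount, other filters, no trend, only the 6 tumors compared, a replicate block, a skeletal muscle covariate, the fit without the 2 muscle-rich tumors, the additional requirement of an absolute log2 fold change above 1, and leaving out each tumor. An item withheld from this text is not reported here.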

Additional observations from a re-analysis of the deposited data

How the results depend on the processing

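The 10 members gave 0 calls in every alternative, except that Smad7 was called in adapted/B6 against original/B6129SF1 (count 1) with only the 6 tumors compared and without adapted/B6129SF1 replicate 1, so that the count without 1 tumor each ranged from 0 to 1. Of the values of single members under the alternatives, 550 kept their direction and side of the threshold, 2 gained a call, 0 lost one and 15 reversed. For the other named genes these were 900, 14, 86 and 16. In adapted/B6 against original/B6129SF1, calls were gained by Inha in 4 alternatives, Inhbb and Skil in 2 each, and Gdf11 and Acvrl1 in 1 each. In adapted/B6129SF1 against original/B6129SF1, they were gained by Smad6 in 2 alternatives, and Htra1 and Dcn in 1 each. The count of other pathway genes called in adapted/B6129SF1 against original/B6129SF1, 4, was 2 with no filter on low values, 1 with only the 6 tumors compared, and 1 to 8 without 1 tumor each: 8 without adapted/B6129SF1 replicate 1, 1 without original/B6129SF1 replicate 3, and 2 without original/B6129SF1 replicate 1 or 2 or any adapted/B6 tumor. The count in adapted/B6 against original/B6129SF1, 7, was 3 with no filter, 4 with a mean of at least 5 FPKM, 4 with the skeletal muscle covariate, 4 without the 2 muscle-rich tumors, 3 with an absolute log2 fold change above 1 also required, and 1 to 9 without 1 tumor each: 1 without original/B6129SF1 replicate 3 or adapted/B6 replicate 2 or 3, and 3 without original/B6129SF1 replicate 1 or adapted/B6 replicate 1. Quantile normalization also ended the calls of Acvrl1, Smad6, Smad5 and Id1, and median scaling that of Id2. The cause was not tested.

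The replicate numbers are shared between groups, but same-numbered tumors are different tumors. Their deviations from the group means correlated at -0.33, 0.026 and 0.0068 in adapted/B6129SF1 and original/B6129SF1, 0.11, 0.30 and 0.069 in adapted/B6 and original/B6129SF1, and -0.39, 0.61 and -0.26 in adapted/B6 and adapted/B6129SF1, so they were not taken as pairs. With a replicate block, 0 members were called in each comparison, and 2, 1 and 0 other pathway genes. The block ended the calls of Acvrl1 (limma adjusted p = 0.0639) and Grem1 (0.0869) in adapted/B6129SF1 and of Acta2 (0.0505), Smad6 (0.0679), Nedd4l (0.0685), Smad5 (0.0928), Id1 (0.0831) and Id2 (0.107) in adapted/B6. Over all genes the calls were 444 and 388 with the block, against 850 and 693 without it, in adapted/B6129SF1 and adapted/B6 against original/B6129SF1, and 0 against 3 between the adapted groups. With only the 6 tumors compared, 493 genes were called in adapted/B6129SF1 against original/B6129SF1, of which 68.0% were higher, against 52.7% of 850. Without 1 tumor, 211 to 808 genes were called in adapted/B6129SF1 against original/B6129SF1, 203 to 819 in adapted/B6 against original/B6129SF1, and 0 to 6 between the adapted groups.

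The log2 fold changes that reversed were not called in either direction. Without the 2 muscle-rich tumors, Fn1 in adapted/B6129SF1 against original/B6129SF1 was 0.058, and in adapted/B6 against adapted/B6129SF1 Tgfb2 was 0.12, Smad7 -0.065, Dcn 0.14 and Skil -0.057. Without 1 tumor each, the log2 fold change in adapted/B6 against adapted/B6129SF1 ranged from -0.25 to 0.46 for Acta2, -0.0015 to 0.41 for Acvr1, -0.23 to 0.046 for Acvrl1, -0.56 to 0.32 for Dcn, -0.030 to 0.30 for Inha, -0.052 to 0.34 for Skil, -0.0094 to 0.48 for Smad7, -0.14 to 0.048 for Tgfb2, -0.31 to 0.094 for Tgfb3, -0.11 to 0.29 for Tgfbi and -0.042 to 0.11 for Tgfbr2. It ranged from -0.033 to 0.38 for Acvr1, -0.62 to 0.058 for Fn1 and -0.034 to 0.80 for Inhbb in adapted/B6129SF1 against original/B6129SF1, and from -0.26 to 0.78 for Fst, -0.14 to 0.66 for Inhba and -0.18 to 0.096 for Tgfbr1 in adapted/B6 against original/B6129SF1.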
